A study of Rattus norvegicus with 14 samples.

Results

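The genes of 7 matrix metalloproteinases (Mmp2, Mmp3, Mmp7, Mmp9, Mmp12, Mmp13 and Mmp14) and of 3 tissue inhibitors of metalloproteinases (Timp1, Timp2 and Timp3) were followed in rat peritoneal mesotheliomas. These 10 genes were taken by name, and all 10 were found among the 14217 genes that had a probe set of their own on the array. The tumors were malignant mesotheliomas of male Wistar rats that had received a single intraperitoneal dose of multiwalled carbon nanotubes or of the asbestos fiber amosite in artificial lung medium. There were 2 from MWCNT B, 3 from MWCNT C, 3 from MWCNT D and 3 from amosite. By histology, 5 of the 11 tumors were sarcomatoid (spindle-shaped cells), 3 epithelioid (epithelium-like cells) and 3 biphasic (both patterns). The 3 controls were peritoneal tissue from rats without particles, called sham-treated in the sample labels and untreated in the methods. Amosite contributed 1 tumor of each type, MWCNT D also 1 of each, MWCNT C 2 sarcomatoid and 1 biphasic, and MWCNT B 1 sarcomatoid and 1 epithelioid. Each array held 1 tissue sample, so the spread between arrays is a spread between animals as far as the labels tell. No age of the rats was taken from the labels, and no genetic modification was named for any group.

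Matrix metalloproteinases (MMPs) are zinc-dependent enzymes that cut collagens, other matrix proteins and many cell-surface proteins, and most are made as inactive precursors that other proteases activate. The 4 TIMP proteins of mammals bind the active enzymes and block them. TIMP2 has a further role, since it joins MMP14, a membrane-anchored collagenase, in a complex on the cell surface that activates the MMP2 precursor. In the mesothelium and in tumors these genes are made by tumor cells, fibroblasts and immune cells, which a bulk array does not separate. An array measures transcripts and says nothing of how much of each enzyme was active.

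Of the members, 4 MMP genes (Mmp13, Mmp12, Mmp3 and Mmp7) lie together on rat chromosome 8. In the RefSeq annotation (assembly GRCr8) the run from Mmp13 to Mmp7 held 10 protein-coding genes, all of them MMPs, in the order Mmp13, Mmp12, Mmp1b, Mmp3, Mmp1, Mmp10, Mmp8, Mmp27, Mmp20 and Mmp7. The bases just before the start of the 4 members of this cluster are shown because they share a short motif layout while the genes' signals, given below, differed from tumor to tumor. Capitals mark an AP-1 motif (TGACTCA, or TGAGTCA when read on the other strand), the letters bound by FOS and JUN proteins, and a TATA motif (TATAAA). Each line holds the 100 bases that end at the base before the annotated start, on the plus strand.
Mmp13, chr8:12782729-12782828: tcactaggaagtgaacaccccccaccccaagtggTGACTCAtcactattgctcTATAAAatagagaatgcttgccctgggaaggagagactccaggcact
Mmp12, chr8:12866552-12866651: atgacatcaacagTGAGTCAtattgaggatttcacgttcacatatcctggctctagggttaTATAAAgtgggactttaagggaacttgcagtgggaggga
Mmp3, chr8:12925181-12925280: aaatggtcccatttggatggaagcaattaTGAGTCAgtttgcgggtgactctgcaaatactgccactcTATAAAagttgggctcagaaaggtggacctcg
Mmp7, chr8:13132943-13133042: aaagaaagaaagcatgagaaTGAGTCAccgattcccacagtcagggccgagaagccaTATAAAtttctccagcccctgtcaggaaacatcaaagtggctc

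Counting the base before the start as -1, the AP-1 motif began at -66 in Mmp13, -87 in Mmp12, -71 in Mmp3 and -80 in Mmp7. The TATA motif began at -47, -39, -32 and -43 in the same genes, and Mmp7 held another one at -140. The AP-1 and TATA letters did not overlap in any of the 4. Both motifs, each searched on both strands in the 250 bases before the start, were found together in 6 of the 10 cluster promoters and in 0.574% of the 33469 promoters of the RefSeq table. The AP-1 letters alone were in 4.05% of those promoters and the TATA letters in 12.9%. Of the 3 TIMP promoters in the table, 0 held either motif in this window, which says only that these letters are not there. A promoter was in the table for 7 of the 10 members, with Mmp2, Mmp9 and Mmp14 missing. These matches describe the sequence and were not tested against binding or against the signals.

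Values below are log2(signal + 1) of the main probe set of each gene, that is, the one with the highest mean over the 14 arrays. Levels are compared between samples for 1 gene at a time and never between genes, because probe sets differ in how brightly they respond. A gene was called different when the Benjamini-Hochberg adjusted p of limma, over all 31042 probe sets, was under 0.05 and the fold change exceeded 2. The controls stood apart from the tumors as a tissue. All 11 measured genes of a skeletal muscle list were lower in the tumors, with list means of 14.28 to 14.31 in the controls and of 4.94 to 5.38 in the tumors. In bulk tissue, fewer cells of a type and less RNA per cell cannot be told apart. Median array signals were 97.2 to 105 for controls and 129 to 155 for tumors, and the actin 3′ minus 5′ difference, a sign of RNA quality, was -1.24 to -0.65 for controls and 0.3 to 0.6 for tumors. The part of tissue make-up and of RNA quality in the differences from the controls was not tested. Amosite replicate 1 and MWCNT D replicate 2 carried pancreatic acinar enzyme signal, with list means of 14.7 and 13.96, where no other tumor exceeded 6.13. Where leaving out these 2 arrays changed a member's call, the value without them is given.

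Against the controls, 6 of the 10 members were higher in the tumors and 0 were lower. They were the enzymes Mmp9, Mmp12, Mmp13 and Mmp14 and the inhibitors Timp1 and Timp2, so 4 of 7 MMP genes and 2 of 3 TIMP genes passed. Over all probe sets, 24.5% were called higher in this comparison. The median log2 fold change of the members was 2.42, against 0.34 for all probe sets. In the same 6 genes every tumor lay above every control, a pattern that 28.1% of all probe sets had. Of the 6 calls, those of Mmp9, Mmp12 and Mmp13 rested partly on control signals under 5. These were near 0 for Mmp9, 0.03 to 1.39 for Mmp13 and 3.58 to 3.96 for Mmp12. When every value under a log2 signal of 5 was set to 5, these 3 were no longer called, and 3 calls (Mmp14, Timp1 and Timp2) remained.

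**Figure D1:**
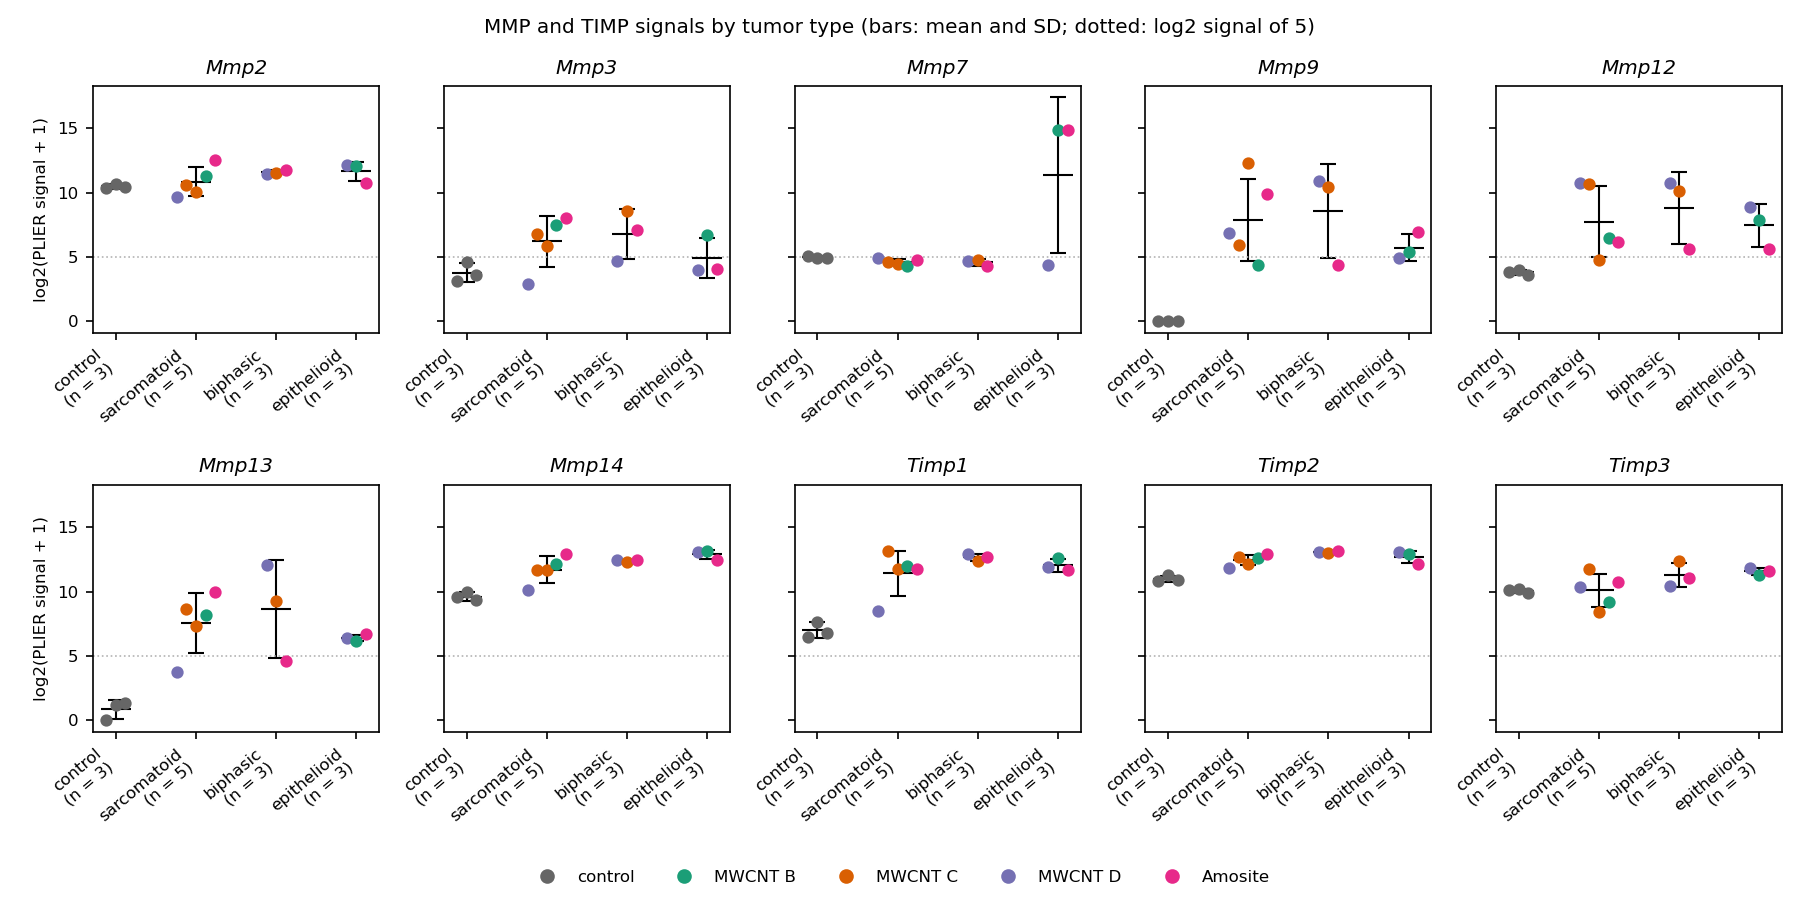
Log2(PLIER signal + 1) of each member in the 14 arrays, with a panel per gene, tumor types and controls on the x axis, color for the inducer, and bars for the mean and SD of each type. Timp1 and Mmp14 lie above the controls in every tumor, Mmp9 and Mmp13 start from controls near 0 and spread widely among tumors, and Mmp7 is high in 2 epithelioid tumors.

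Mmp14 (MT1-MMP), the membrane-anchored collagenase, stood at 9.56, 9.97 and 9.34 in the controls. The sarcomatoid tumors had 10.12 (MWCNT D replicate 2), 11.71 and 11.71 (MWCNT C replicates 1 and 2), 12.14 (MWCNT B replicate 2) and 12.92 (amosite replicate 3). Biphasic tumors gave 12.3 (MWCNT C replicate 3), 12.45 (MWCNT D replicate 3) and 12.43 (amosite replicate 2). The epithelioid tumors gave 13.15 (MWCNT B replicate 1), 13.07 (MWCNT D replicate 1) and 12.5 (amosite replicate 1). All tumors lay above all controls, and the lowest tumor, MWCNT D replicate 2, was just above the highest control. Tumors averaged 12.23 ± 0.85 (SD, n = 11) and controls 9.62 ± 0.32 (SD, n = 3), a log2 fold change of 2.6 (standard error 0.48, limma adjusted p = 0.00039). Every inducer and every tumor type passed against the controls, with log2 fold changes of 2.26 (MWCNT D) to 3.02 (MWCNT B) and 2.09 (sarcomatoid) to 3.28 (epithelioid). The MWCNT D value was 3.14 without MWCNT D replicate 2 and 1.66 without MWCNT D replicate 1, and the MWCNT B call ended without MWCNT B replicate 1. The MWCNT D call ended in the fit of the compared groups alone (adjusted p = 0.058). A second Mmp14 probe set, with control signals of 7.18 to 7.95, gave 2.96 (adjusted p = 0.00033).

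Mmp2 (gelatinase A), which cuts type IV collagen and denatured collagens, had 10.38, 10.7 and 10.4 in the controls. Its tumor values began at 9.69 in MWCNT D replicate 2, 10.08 and 10.57 in MWCNT C replicates 2 and 1 and 10.76 in amosite replicate 1. The other 7 tumors lay between 11.3 (MWCNT B replicate 2) and 12.55 (amosite replicate 3). In all, 8 tumors lay above all controls, amosite replicate 1 only just. The ranges of tumors and controls therefore overlapped, and the log2 fold change of 0.77 (standard error 0.5) did not pass (limma adjusted p = 0.21). Its log2 fold changes by group were 0.24 to 1.19, and 0 of the 7 groups passed. In fits of the compared groups alone, MWCNT B (1.19, adjusted p = 0.02), biphasic (1.1, adjusted p = 0.0035) and epithelioid tumors (1.15, adjusted p = 0.048) passed. Without both tumors with pancreatic enzyme signal, 3 groups passed: MWCNT D (1.3, adjusted p = 0.038), amosite (1.65, adjusted p = 0.014) and epithelioid tumors (1.6, adjusted p = 0.035). The epithelioid type also passed without amosite replicate 3 (1.15, adjusted p = 0.043). The probe sets of Mmp2 disagreed in direction. A second, dimmer one read 5.62 to 6.78 in the tumors and 6.93 to 7.11 in the controls (log2 fold change -0.77, adjusted p = 0.012), below the fold threshold.

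Timp2, the inhibitor that also takes part in MMP2 activation, had 10.83, 11.28 and 10.93 for controls and 11.87 to 13.17 for tumors. The lowest tumor was again MWCNT D replicate 2, followed by 12.18 in both MWCNT C replicate 2 and amosite replicate 1, and the highest was amosite replicate 2. The log2 fold change was 1.69 (standard error 0.26, limma adjusted p = 8.8e-05), with tumors at 12.7 ± 0.44 (SD, n = 11) and controls at 11.01 ± 0.24 (SD, n = 3). Its spread among tumors was the smallest of the 10 members, an SD that exceeded that of 55.8% of all probe sets. All 7 groups passed against the controls, between 1.45 (sarcomatoid) and 2.07 (biphasic). The MWCNT B call ended without MWCNT B replicate 1. A second Timp2 probe set gave 2.25 (adjusted p = 0.00052).

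Timp1, an inhibitor of most secreted MMPs that is known as a gene switched on by growth factors and inflammatory cytokines, had the lowest adjusted p of the members. Its controls read 6.49, 7.68 and 6.8. The tumors read 13.18, 11.75 and 12.41 (MWCNT C replicates 1 to 3), 11.94, 8.49 and 12.92 (MWCNT D replicates 1 to 3), 12.63 and 11.97 (MWCNT B replicates 1 and 2) and 11.65, 12.66 and 11.75 (amosite replicates 1 to 3). Thus 10 tumors lay at 11.65 or more, while MWCNT D replicate 2, 1 of the 2 tumors with pancreatic enzyme signal, lay much nearer the controls. The log2 fold change was 4.95 (standard error 0.71, limma adjusted p = 4.6e-05) over all tumors. It ranged from 4.7 to 5.3 when any 1 array was left out. Each inducer and each tumor type passed, between 4.13 (MWCNT D) and 5.68 (biphasic). The MWCNT D value was 5.44 without its replicate 2 and 3.22 without its replicate 3, and the sarcomatoid value of 4.44 was 5.17 without MWCNT D replicate 2. These calls held under every alternative run at the same adjusted p threshold.

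Timp3, the inhibitor that stays bound to the matrix, gave 10.13, 10.18 and 9.87 in the controls. In the tumors it lay between 8.46 (MWCNT C replicate 2) and 12.35 (MWCNT C replicate 3). Tumors of the same inducer thus held both ends of its range, with 9 tumors above all controls and 2, both sarcomatoid, below them. The log2 fold change of 0.77 (standard error 0.65) was not called (limma adjusted p = 0.33). Its 4 probe sets differed in this. Those with controls at 5.11 to 5.58 and at 7.34 to 7.88 were called higher, with differences of 2.57 (adjusted p = 0.0092) and of 1.96 (adjusted p = 0.034). The remaining one gave 1.06 (adjusted p = 0.18). Without MWCNT C replicate 2, the MWCNT C tumors passed on the main probe set (1.98, adjusted p = 0.026, against 0.79 and adjusted p = 0.5 with it). On the same probe set, amosite (1.08, adjusted p = 0.019) and epithelioid tumors (1.51, adjusted p = 0.0016) passed in fits of the compared groups alone. With the mean of the 4 probe sets, the biphasic (2.18, adjusted p = 0.024) and epithelioid tumors (2.37, adjusted p = 0.016) passed. All 4 were lowest in MWCNT C replicate 2 or MWCNT B replicate 2.

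Mmp9 (gelatinase B), known from neutrophils, macrophages and osteoclasts as well as tumor cells, was at 0 to 0.01 in the 3 controls. Tumors read 5.97, 12.3 and 10.46 (MWCNT C replicates 1 to 3), 4.89, 6.89 and 10.91 (MWCNT D replicates 1 to 3), 5.42 and 4.4 (MWCNT B replicates 1 and 2) and 6.91, 4.38 and 9.91 (amosite replicates 1 to 3). High tumors, at 9.91 or more, were found under MWCNT C, MWCNT D and amosite and among sarcomatoid and biphasic tumors. Tumors averaged 7.49 ± 2.88 (SD, n = 11), with limma adjusted p = 0.0011. The fitted log2 difference of 7.49 depends on how the near-zero control values are handled, being 2.61 (adjusted p = 0.2) with all values raised to at least 5. By group, Mmp9 was called in MWCNT C (9.57), MWCNT D (7.56) and amosite tumors (7.06) and in all 3 types, with adjusted p of 0.0017 to 0.029, but not in MWCNT B tumors (4.9, adjusted p = 0.08, and 0.049 without MWCNT C replicate 1). With values raised to at least 5, all 6 of these group calls ended, with differences of 0.78 (epithelioid) to 4.57 (MWCNT C) and adjusted p of 0.083 to 0.84. The epithelioid call, 5.73, also ended without the 2 tumors with pancreatic enzyme signal (adjusted p = 0.089), MWCNT B replicate 1, amosite replicate 1 or any of the controls (adjusted p of 0.057 to 0.085). MWCNT B tumors passed in the fit of the compared groups alone (4.9, adjusted p = 0.00069) and with the replicate number as a block (5.79, adjusted p = 0.035). A second Mmp9 probe set, with controls at 0.01 to 1.7, was called as well (5.75, adjusted p = 0.0044) and also had MWCNT C replicate 2 highest, at 11.34.

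Mmp13 (collagenase 3), the main interstitial collagenase of rodents, read 0.03, 1.22 and 1.39 in the controls. It reached 12.1 in MWCNT D replicate 3, 10.01 in amosite replicate 3, 9.28 and 8.63 in MWCNT C replicates 3 and 1 and 8.22 in MWCNT B replicate 2. The other tumors had 7.31 (MWCNT C replicate 2), 6.68 (amosite replicate 1), 6.37 (MWCNT D replicate 1), 6.17 (MWCNT B replicate 1), 4.58 (amosite replicate 2) and 3.79 (MWCNT D replicate 2). MWCNT D held both the highest and the lowest tumor, and the 3 epithelioid tumors lay close together, at 6.41 ± 0.26 (SD, n = 3). The log2 fold change was 6.68 (standard error 1.34, limma adjusted p = 0.00076), and 2.71 (adjusted p = 0.099) with values raised to at least 5. Mmp13 was called in all 7 groups, between 5.53 (epithelioid) and 7.77 (biphasic), and at that floor in none of them (adjusted p of 0.076 to 0.53). The MWCNT B call ended without either of its tumors or any control, the amosite call without amosite replicate 3 or control replicate 1, and the epithelioid call without control replicate 1.

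Mmp12, the macrophage elastase, had 3.86, 3.96 and 3.58 in the controls. Tumors from MWCNT D gave 8.89, 10.72 and 10.73, those from MWCNT C 10.64, 4.8 and 10.13, those from MWCNT B 7.87 and 6.45, and those from amosite 5.65, 5.6 and 6.14. The amosite values thus lay close together and below both MWCNT B tumors, while MWCNT C replicate 2 lay below all of them. The log2 fold change over all tumors was 4.17 (standard error 1.28, limma adjusted p = 0.013), and 2.98 (adjusted p = 0.084) with values raised to at least 5. By inducer, MWCNT C (4.72, adjusted p = 0.009) and MWCNT D (6.31, adjusted p = 0.0017) passed. With values raised to at least 5 they still passed (3.59, adjusted p = 0.046, and 5.11, adjusted p = 0.0096). MWCNT B (3.36, adjusted p = 0.072) and amosite (2, adjusted p = 0.21) did not pass in the main fit. Both passed without MWCNT C replicate 2 (adjusted p = 0.0014 and 0.01) and in fits of the compared groups alone (adjusted p = 0.0037 and 0.0013). By type, sarcomatoid (3.95, adjusted p = 0.044) and biphasic tumors (5.02, adjusted p = 0.027) passed, and epithelioid tumors did not (3.67, adjusted p = 0.091). Without the 2 tumors with pancreatic enzyme signal, the epithelioid type passed (4.58, adjusted p = 0.046) and the sarcomatoid type did not (3.21, adjusted p = 0.078). The epithelioid type also passed in the fit of the compared groups alone (adjusted p = 0.01). With values raised to at least 5, the sarcomatoid and biphasic calls ended (adjusted p = 0.19 and 0.11). The sarcomatoid and biphasic calls were lost without any of several single arrays (MWCNT D replicate 2, MWCNT C replicate 1, MWCNT B replicate 1 or any control for the sarcomatoid type, with adjusted p up to 0.11, and MWCNT D replicate 3, MWCNT C replicate 3 or any control for the biphasic type, with adjusted p up to 0.1).

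Mmp3 (stromelysin 1), which cuts matrix proteins and can activate other MMP precursors, had 3.11, 4.6 and 3.63 in the controls. Its tumor values were 8.59 (MWCNT C replicate 3), 8.02 and 7.07 (amosite replicates 3 and 2), 7.47 and 6.74 (MWCNT B replicates 2 and 1), 6.76 and 5.86 (MWCNT C replicates 1 and 2), 4.69, 3.97 and 2.93 (MWCNT D replicates 3, 1 and 2) and 4.1 (amosite replicate 1). The 3 MWCNT D tumors and amosite replicate 1 were at or near the control range, and the other 7 were above it. Over all tumors the log2 fold change of 2.24 (standard error 1.03) missed the threshold (limma adjusted p = 0.08). It passed without MWCNT D replicate 2 (2.55, adjusted p = 0.028), and without both tumors with pancreatic enzyme signal (2.79, adjusted p = 0.012). By inducer it was called in MWCNT B (3.33, adjusted p = 0.031), MWCNT C (3.29, adjusted p = 0.017) and amosite tumors (2.61, adjusted p = 0.047), and gave 0.08 (adjusted p = 0.95) in MWCNT D tumors. These 3 calls ended when values were raised to at least 5 (adjusted p of 0.092, 0.062 and 0.12), and also without single arrays. By type it missed the threshold in all 3, but passed in sarcomatoid (3.25, adjusted p = 0.012) and biphasic tumors (3, adjusted p = 0.025) without MWCNT D replicate 2 (0.013 and 0.027 without both tumors with pancreatic enzyme signal), and in biphasic tumors also without MWCNT D replicate 3 (4.05, adjusted p = 0.03). In fits of the compared groups alone, the amosite call ended (adjusted p = 0.088) and the biphasic type passed (3, adjusted p = 0.046). The arrays behind the MWCNT B call were either of its own tumors or control replicate 1 or 3, for MWCNT C its replicate 3 or control replicate 1, and for amosite 10 of the 14 arrays.

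Mmp7 (matrilysin), a small MMP known from glandular epithelium, was high in 2 tumors and at the control level or below in the rest. It read 14.86 in MWCNT B replicate 1 and 14.85 in amosite replicate 1, both epithelioid, and 4.27 to 4.96 in the other 9 tumors. Controls lay between 4.91 and 5.07. The third epithelioid tumor, MWCNT D replicate 1, had 4.35. Its SD over the tumors was 4.16, against a median SD of 0.399 over all probe sets. The epithelioid tumors were called higher than the controls (log2 fold change 6.39, standard error 2.01, limma adjusted p = 0.02). This call was lost without MWCNT B replicate 1 (4.64, adjusted p = 0.09), without amosite replicate 1 (4.64, adjusted p = 0.088, and 0.095 without both tumors with pancreatic enzyme signal), without control replicate 3 (6.36, adjusted p = 0.05), and in the fit with the replicate number as a block (6.36, adjusted p = 0.086). The epithelioid call was lost too in the fit of the compared groups alone (6.39, adjusted p = 0.11). In MWCNT B tumors Mmp7 was not called (4.6, adjusted p = 0.26). MWCNT B replicate 1 alone differed from the controls by 9.89, a value of 1 tumor with no spread of its own. Without the 2 high tumors Mmp7 stood at -0.62 in the remaining epithelioid tumor and at -0.39 (adjusted p = 0.058) over all remaining tumors.

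**Figure D2:**
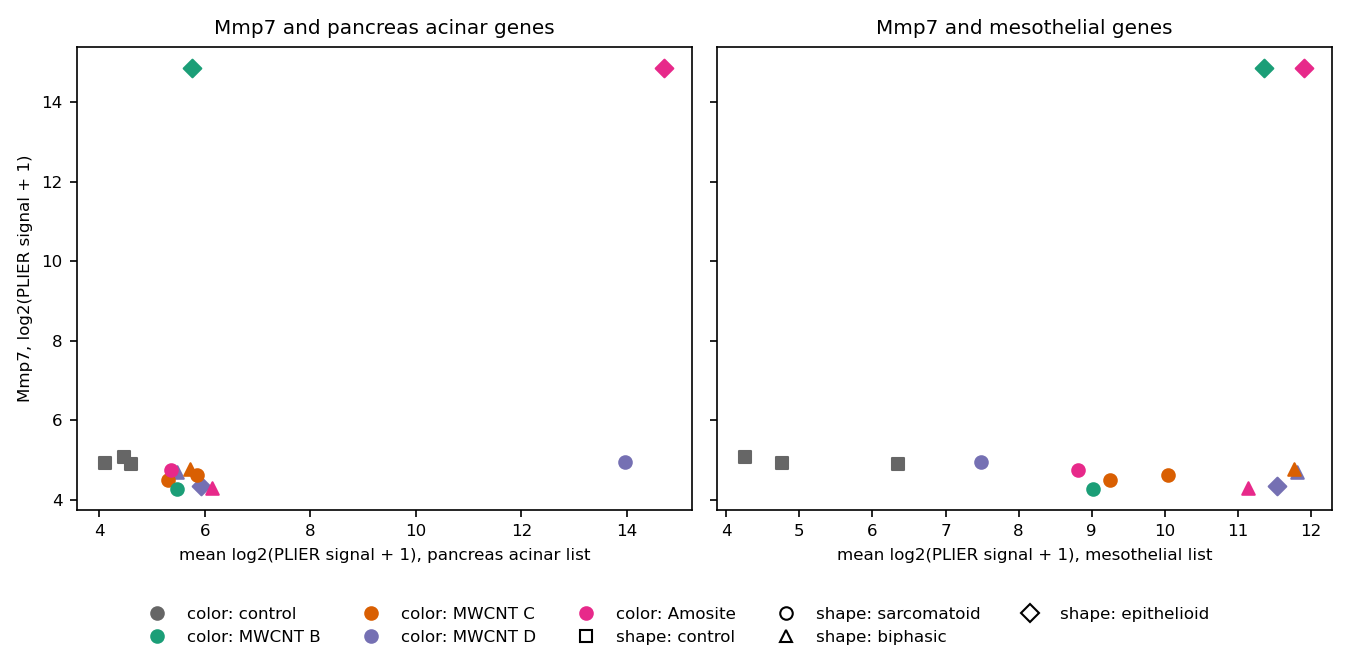
Mmp7 log2(PLIER signal + 1) on the y axis against the mean log2 signal of the pancreas acinar list (left) and the mesothelial list (right) in the 14 arrays, with color for the inducer and shape for the tumor type or control. Of the 2 tumors with high Mmp7, amosite replicate 1 has a pancreas list mean of 14.7 and MWCNT B replicate 1 of 5.75, and both have mesothelial list means over 11.

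The lists of other cell types were set beside Mmp7. Of 12 measured pancreas acinar genes, 1 was called higher in the tumors and 0 lower, and the list means were 14.7 and 5.75 in the 2 tumors with high Mmp7. MWCNT D replicate 2, with a list mean of 13.96, had a Mmp7 signal of 4.96. Over all probe sets, 24.5% were called higher, a share to be read beside the counts of this paragraph. The list of gut or pancreatic duct epithelium, with 4 of 6 genes called higher in the tumors, had means of 8.29 in MWCNT B replicate 1 and 9.02 in amosite replicate 1. MWCNT D replicate 3 and MWCNT C replicate 3 had 9.67 and 9.24 on this list with Mmp7 at the level of the other tumors. On the mesothelial list, with 6 of 9 genes called higher, MWCNT B replicate 1 had the lowest mean of the epithelioid tumors (11.35) and amosite replicate 1 the highest (11.9). Biphasic tumors had means of 11.13 to 11.8 and sarcomatoid tumors of 7.48 to 10.04. The part of these tissues in the Mmp7 signal was not tested.

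**Figure D3:**
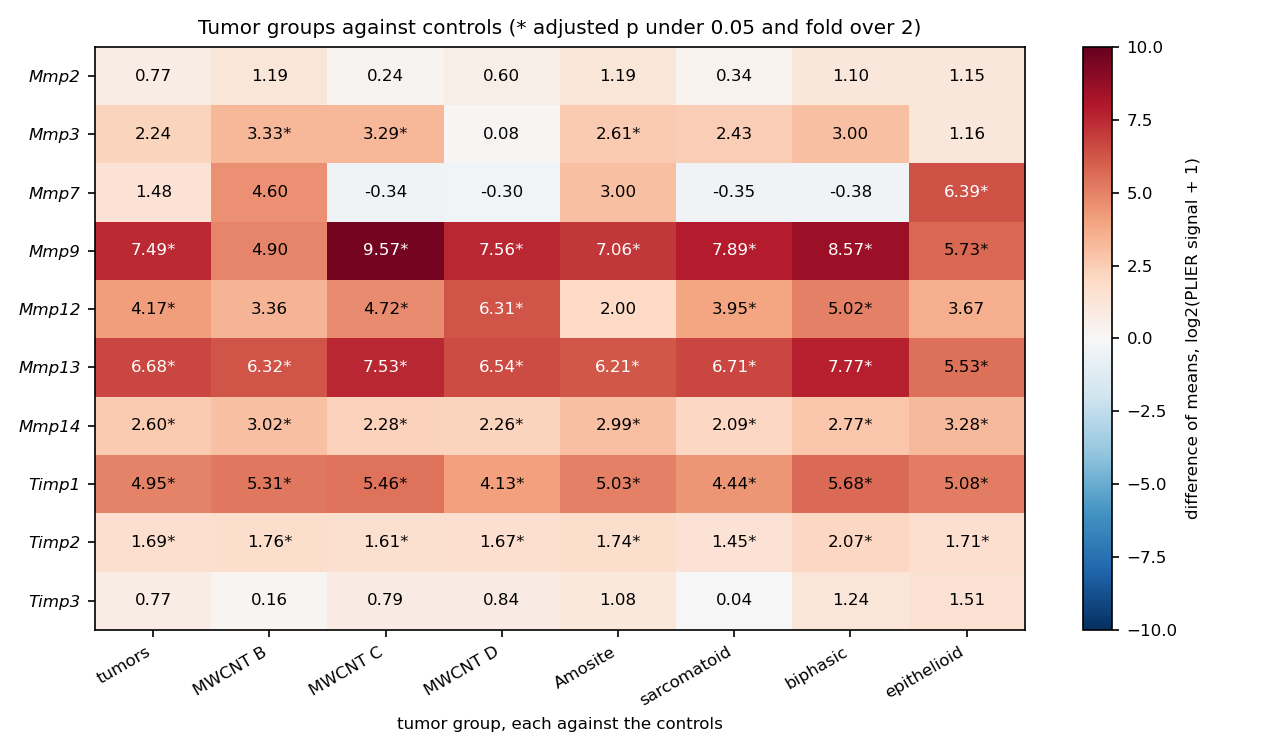
Differences of mean log2(PLIER signal + 1) between each tumor group (columns) and the controls for each member (rows), with color for the difference and an asterisk for adjusted p under 0.05 and a fold above 2. Mmp13, Mmp14, Timp1 and Timp2 carry an asterisk in all 8 columns, and Mmp2 and Timp3 in none.

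The number of members called higher was 5 for MWCNT B tumors, 7 for MWCNT C, 6 for MWCNT D and 6 for amosite. Of all probe sets, 20.8%, 21.9%, 22.4% and 22.3% were called higher in these comparisons. By type, 6 members were higher in sarcomatoid, 6 in biphasic and 6 in epithelioid tumors, beside 23.3%, 24% and 24.6% of all probe sets. No member was called lower in any of these groups. Mmp13, Mmp14, Timp1 and Timp2 were called in all 7 groups, while Mmp2 and Timp3 were called in none. The groups share their 3 controls, so their counts are not independent of each other.

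The tumor groups were also compared directly, since passing in one group and not in another is no test of a difference. In the comparison of sarcomatoid and epithelioid tumors, 0 of 10 members passed, beside 0.76% of all probe sets. The largest difference was that of Mmp7 (-6.74, standard error 1.8, limma adjusted p = 0.12), followed in p by Mmp14 (-1.19, standard error 0.46, adjusted p = 0.29) and Timp3 (-1.47, standard error 0.63, adjusted p = 0.34), all 3 with the lower mean in the sarcomatoid type. Sarcomatoid against biphasic tumors gave 0 of 10 (background 0.248%), as did biphasic against epithelioid tumors (background 0%). The test of any difference among the 3 types gave 0 of 10 as well (background 0.126%, smallest adjusted p = 0.4). MWCNT D replicate 1 was the epithelioid tumor with low Mmp7. Without it, Mmp7 passed in sarcomatoid against epithelioid tumors (-10.24), in biphasic against epithelioid tumors (-10.27) and among types. That left only the 2 epithelioid tumors with high Mmp7, so these passes are no test of the types. At an unadjusted p under 0.05, 3 members differed between sarcomatoid and epithelioid tumors.

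By inducer, 0 of 10 members passed between MWCNT and amosite tumors (background 0%), and 0 of 10 among the 4 inducers (background 0%), with 1 member at an unadjusted p under 0.05 in each. The former was Mmp12, with a mean of 8.78 ± 2.24 (SD, n = 8) in MWCNT tumors and 5.8 ± 0.29 (SD, n = 3) in amosite tumors (2.98, standard error 1.21, limma adjusted p = 1). The latter was Mmp3, with means of 7.11 (MWCNT B), 7.07 (MWCNT C), 6.4 (amosite) and 3.86 (MWCNT D) (limma adjusted p = 1). The standard errors of MWCNT against amosite ran from 0.3 (Timp2) to 2.61 (Mmp7) on the log2 scale, so a missed threshold does not show that the inducers act alike.

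Ranked by their means, the types fell in the order epithelioid, biphasic, sarcomatoid for Mmp2, Mmp14 and Timp3, and biphasic, sarcomatoid, epithelioid for Mmp3, Mmp9, Mmp12 and Mmp13. For Timp1 and Timp2 the order was biphasic, epithelioid, sarcomatoid. Controls came last for all of these. Neighboring types overlapped in every one of these orders, apart from Mmp14, whose 3 epithelioid tumors (12.5 to 13.15) lay just above the 3 biphasic ones (12.3 to 12.45). Among inducers, the neighbors in order that did not overlap were MWCNT B above amosite for Mmp12 and amosite above MWCNT C for Mmp14. Only neighbors in each order were looked at. These groups hold 2 or 3 tumors each, and the share of all probe sets that separate in this way was not computed. The separations were therefore not read as differences.

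**Figure D4:**
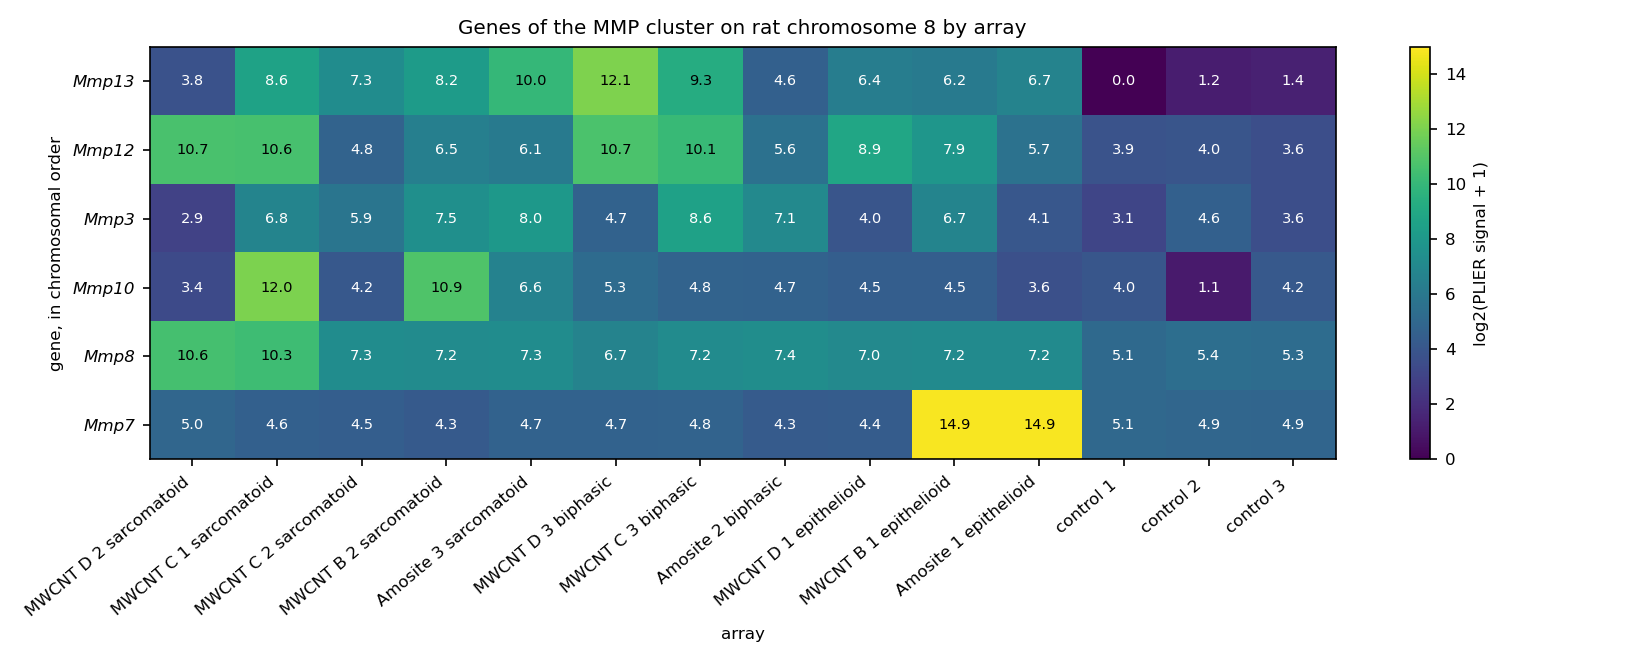
Log2(PLIER signal + 1), as color and printed value, of the 6 measured genes of the MMP cluster (rows, in chromosomal order) in each array (columns, by tumor type and then controls). The tumors with high values differ between genes, such as 2 epithelioid tumors for Mmp7 and MWCNT C replicate 1 and MWCNT B replicate 2 for Mmp10. Some tumors are high in several genes.

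Of the 10 genes in the chromosome 8 cluster, 6 were measured, 4 of them members and the others being Mmp8 and Mmp10. The tumors with high values differed from gene to gene, but some tumors were high in several of these genes. MWCNT C replicate 1 had 10.64 for Mmp12 and 8.63 for Mmp13, beside the Mmp10 and Mmp8 values given next. Mmp10 (stromelysin 2) read 12.02 in MWCNT C replicate 1 and 10.87 in MWCNT B replicate 2, against 6.63 or less elsewhere in the tumors, and did not pass over all tumors (log2 fold change 2.75, limma adjusted p = 0.17). Mmp8, the neutrophil collagenase, peaked at 10.58 in MWCNT D replicate 2 and 10.34 in MWCNT C replicate 1. It was called over all tumors (2.49, adjusted p = 0.011). In MWCNT D replicate 3 Mmp13 and Mmp12 were both high (12.1 and 10.73) and Mmp3 was low (4.69), whereas in MWCNT D replicate 2 Mmp12 was high (10.72) and Mmp13 (3.79) and Mmp3 (2.93) were low. Across the 11 tumors, Pearson's r was 0.22 for Mmp12 and Mmp13 (Spearman's rho 0.23, permutation p = 0.53 and 0.51), 0.37 for Mmp3 and Mmp13 (rho 0.49, permutation p = 0.26 and 0.13) and -0.23 for Mmp3 and Mmp12 (rho -0.24, permutation p = 0.49 and 0.48). Without the 2 tumors farthest from the median these were -0.03, -0.01 and 0.09, and all had adjusted p of 0.68 or more. No r is given for Mmp7, whose tumors form separate clusters of 2 and 9.

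Correlations were computed for all 45 pairs of members over the 11 tumors, with a permutation test of 100000 resamples and Benjamini-Hochberg adjustment. By Pearson's r, 2 pairs passed, and by Spearman's rho 0 did. Both pairs held Mmp2, read by its main probe set. No correlation was computed for the second Mmp2 probe set, which went the other way against the controls. Mmp2 and Mmp14 had r = 0.88 (permutation p = 9e-05, adjusted p = 0.004) and rho = 0.85 (permutation p = 0.0017, adjusted p = 0.077). Mmp2 and Timp2 had r = 0.85 (permutation p = 0.0014, adjusted p = 0.031) and rho = 0.74 (permutation p = 0.013, adjusted p = 0.29). Without the 2 tumors farthest from the Mmp2 median, r was 0.81 and 0.63. With the mean of each tumor type removed it was 0.88 and 0.88. Groups by inducer hold 2 or 3 tumors, too few for an r of their own. Mmp14 and Timp2 (r = 0.74, permutation p = 0.0071, adjusted p = 0.08; rho = 0.54, permutation p = 0.093) and Timp1 and Timp2 (r = 0.74, permutation p = 0.0051, adjusted p = 0.076; rho = 0.65, permutation p = 0.034) did not pass. MWCNT D replicate 2 was lowest in Mmp2, Mmp14, Timp1 and Timp2 alike. Its means on the fibroblast and mesothelial lists, 10.98 and 7.48, were also the lowest of the tumors, and the part of this make-up in the correlations was not tested.

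**Figure D5:**
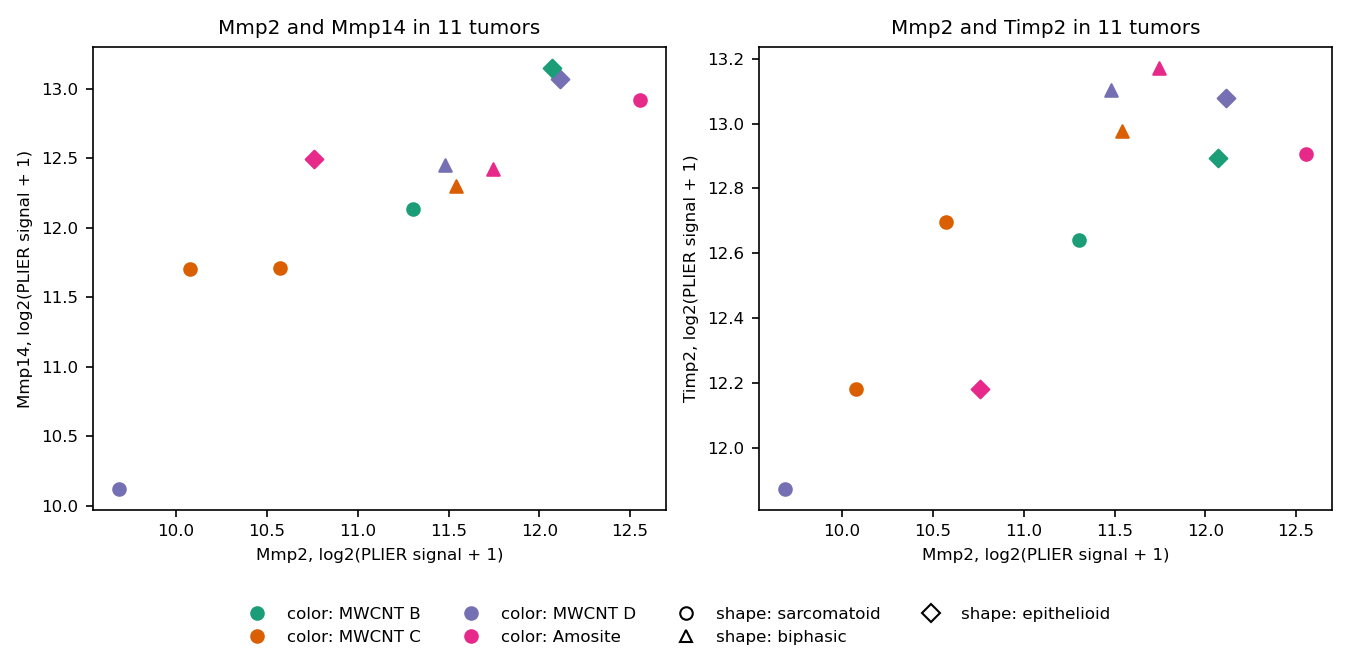
Mmp2 log2(PLIER signal + 1) of the main probe set on the x axis against Mmp14 (left) and Timp2 (right) in the 11 tumors, with color for the inducer and shape for the tumor type. Both rise with Mmp2 (r = 0.88 and 0.85), and MWCNT D replicate 2 is the lowest point in both.

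For the members that varied most among tumors, the genes whose pattern was most alike were found by Pearson's r over the 11 tumors, as a description with no test. For Mmp3 these were Stmp1 (r = 0.939), Dync1i2 (0.865) and Septin5 (0.862). None are named for Mmp7, since r would only set its 2 high tumors against the others. Mmp9 was matched by Emc8 (0.905), Pwp2 (0.902) and Hnrnpab (0.901), Mmp12 by Pip4k2c (0.936), Itga1 (0.893) and Stat3 (0.869), and Mmp13 by Selenoi (0.88), Faf2 (0.874) and Psmc1 (0.867). Timp1 was matched by Gprc5a (0.933), Rbfox2 (0.929) and the matrix proteoglycan versican, Vcan (0.927), and Timp3 by Cd81 (0.921), Egln3 (0.891) and Mpzl2 (0.885). All points share the same arrays, and with so many genes searched, high values of r are found for any gene.

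Other genes of the protease system were read from lists. Of 10 further MMP genes measured, 4 were higher and 1 lower in the tumors. The lower was Mmp15, another membrane-anchored MMP, with controls at 9.77 ± 0.09 (SD, n = 3) and tumors at 7.17 ± 1.02 (SD, n = 11) (log2 fold change -2.6, limma adjusted p = 0.0014), opposite to Mmp14. The 4 higher, named after their values were seen, were Mmp8, Mmp11 (4.48, adjusted p = 5.8e-05), Mmp16 (3.61, adjusted p = 5e-04) and Mmp19 (3.18, adjusted p = 0.0021). Of 7 other inhibitors, 3 were higher. The broad protease inhibitor A2m, at 0.01 in all controls, ranged from 0.02 to 12.49 in the tumors (adjusted p = 0.0049), and the membrane-bound MMP inhibitor Reck gave 1.1 (adjusted p = 0.0028). Timp4, the fourth TIMP, read 7.52 to 8.01 for controls and 4.68 to 9.98 for tumors and was not called (-1.21, adjusted p = 0.22).

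Among activators and binding partners of MMPs, 9 of 14 genes were higher and 0 lower. They included the urokinase receptor Plaur (4.7, limma adjusted p = 0.00026), the MMP9-binding lipocalin Lcn2 (3.97, adjusted p = 0.0092) and tissue plasminogen activator, Plat (3.5, adjusted p = 0.00017). Of 7 ADAM proteases, which shed cell-surface proteins, 5 were higher, led by Adam10 (2.44, adjusted p = 0.00024), Adam19 (1.87, adjusted p = 0.0011) and Adam17 (1.58, adjusted p = 1.5e-05). Of 8 ADAMTS proteases, which cut proteoglycans and procollagens, 4 were higher, led by Adamts7 (2.76, adjusted p = 0.00015). Among 19 matrix substrates, 7 were higher, with osteopontin, Spp1 (7.54, adjusted p = 0.00023), versican, Vcan (3.04, adjusted p = 0.0096) and biglycan, Bgn (2.82, adjusted p = 8.5e-06) at the top. The fibrillar collagen genes Col1a1 (0.45), Col1a2 (0.72) and Col3a1 (0.53) were not called. Of 17 cytokines and transcription factors known to drive MMP genes, 10 were higher, led by the AP-1 subunits Fosl1 (4, adjusted p = 0.015) and Junb (2.85, adjusted p = 3.9e-05) and by Nfkb1 (1.61, adjusted p = 0.00017). Fos (0.53) and Jun (0.44) themselves were not called. All these counts stand beside the 24.5% of probe sets called higher.

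Markers of cells known to make MMPs were read beside the members, again with 24.5% of all probe sets called higher. Of 11 macrophage genes, 10 were higher, and the log2 of their summed signal was 11.32 to 12.38 for controls and 12.94 to 15.45 for tumors. Among them were Fcgr3a (4.27, limma adjusted p = 0.00063), Cd68 (4.03, adjusted p = 3.5e-05) and Tyrobp (3.36, adjusted p = 2.8e-05). Amosite replicate 2 had the highest macrophage list mean (11.77) with a Mmp12 signal of 5.6, and MWCNT C replicate 3 the lowest (9) with 10.13. Of 7 neutrophil genes, 5 were higher, and their summed log2 signal was 6.55 to 7.78 for controls and 8.77 to 13.65 for tumors. The osteoclast and bone list had 2 of 7 genes higher and 1 (Bglap, named after its value was seen) lower, with Acp5 (4.33, adjusted p = 0.00037) and cathepsin K, Ctsk (2.81, adjusted p = 0.012) leading. The summed log2 signal of this list was 8.69 to 9.17 for controls and 9.51 to 13.75 for tumors, and Acp5 and Ctsk were both highest in MWCNT C replicate 2, the tumor with the highest Mmp9. The osteoclast receptor gene Calcr stayed at 5.3 to 5.84 in the tumors and 5.1 to 5.56 in the controls. Of 9 fibroblast genes, 4 were higher, with a summed log2 signal of 15 to 15.6 for controls and 14.85 to 16.46 for tumors. The part of these cells in the signals of the members was not tested.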

How the data were processed

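RNA of 11 mesotheliomas and 3 control peritoneal tissues was measured on Affymetrix rat expression arrays. The deposited values are linear intensity per probe set, summarised by the authors with PLIER in the Transcriptome Analysis Console, already background-corrected and normalized. The files hold 31099 probe sets. After 57 array controls were removed, 31042 were analysed as log2(signal + 1). Probe sets were assigned to genes by the platform annotation: 20826 probe sets carried 1 symbol, 436 several and 9780 none. For 20758 of those with 1 symbol, the RefSeq symbol of the same gene identifier was used as the name. The number of arrays limits the precision.

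Groups came from the sample labels. Limma 3.58.1 in R 4.3.3 (lmFit, eBayes) was fitted over all probe sets, and p-values were adjusted by Benjamini-Hochberg over all of them. Comparisons with the controls and of pairs of tumor types used fits of all 14 arrays. The tests among types, among inducers and of MWCNT against amosite used the 11 tumors. Calls needed an adjusted p under 0.05 and a fold above 2. A test on simulated data used the same code. Correlations, promoter motifs and figures were computed in Python 3.11.15 with numpy 2.4.6, pandas 2.3.3 and matplotlib 3.10.9. Promoter sequences are from RefSeq (GRCr8). All 10 members are described. From the other lists, at most the 3 called genes with the largest change and a group mean of at least 8 were named by rule, with the 3 genes most alike each variable member except Mmp7. Other list genes (further MMPs, Timp4, Bglap, Calcr, collagens, Fos and Jun) were named after their values were seen. Members, lists and tests were chosen with earlier results of these data known. The alternatives were quantile normalization, median centring, a pseudocount of 16, a floor at 5, a filter at a mean of 6, other moderation, the mean of a gene's probe sets, fits of the compared groups alone, covariates, a replicate block, a stricter adjusted p and leaving out arrays. Replicate numbers did not pair the arrays: deviations of same-numbered arrays from their group means correlated at -0.29 to 0.392 (median 0.015).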

Additional observations from a re-analysis of the deposited data

Results flagged for a closer look

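Among the 8 MWCNT tumors, 2 values stood apart from the rest of their group. Mmp7 in MWCNT B replicate 1 (log2 signal 14.86) had a gap to the next tumor of 0.935 of the whole range of the group. Timp1 in MWCNT D replicate 2 (8.49), a tumor with pancreatic enzyme signal, had a gap to the next tumor of 0.694 of the range. The 10 members were looked at in this way in the MWCNT and the sarcomatoid tumors, and chance alone marks about 1 in 20 such groups.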

How the results depend on the processing

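Over all tumors, 6 members were called higher, and 3 with a floor at log2 5, alone or with median centring, where values under 5 are raised. Both of these alternatives also gave 3 in MWCNT B (from 5), amosite, sarcomatoid and biphasic tumors (from 6) and 4 in MWCNT C tumors (from 7). Under both, MWCNT D and epithelioid tumors lost the calls of Mmp9 and Mmp13. At an adjusted p under 0.001 the counts were 0 for MWCNT B, MWCNT D and amosite, 1 for MWCNT C, 2 for sarcomatoid and 3 each for biphasic and epithelioid tumors. In MWCNT B tumors the count was 3 under quantile normalization, without moderation and without the 2 tumors with high Mmp7, and 8 in the fit of the compared groups alone. With a pseudocount of 16 it was 3 in amosite tumors, and without the 2 tumors with high Mmp7 it was 3 in epithelioid tumors. The cause of these changes was not tested. Without those 2 tumors Mmp7 reversed to -0.39 over all tumors and to -0.62 in the epithelioid type. The alternative without the high-Mmp7 tumors and the floor with median centring were chosen after seeing the data.

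When 1 array was left out, the counts ran from 6 to 7 over all tumors, 1 to 6 in MWCNT B, 6 to 8 in MWCNT C, 6 to 6 in MWCNT D, 4 to 7 in amosite, 5 to 6 in sarcomatoid, 5 to 7 in biphasic and 4 to 7 in epithelioid tumors against the controls, the lowest MWCNT B count being that without MWCNT B replicate 1. They ran from 0 to 1 in sarcomatoid against epithelioid and biphasic against epithelioid tumors and among types, and were 0 in the other comparisons of tumors. Where a group kept 1 array, its spread was taken from the other groups. The fit with the replicate number as a block gave 6 over all tumors, 6 in MWCNT B and 5 in epithelioid tumors, where Mmp7 was lost, and same-numbered arrays did not deviate together. Under the filter on low values Mmp3 and Mmp9, with means under 6, were not tested, and 5 members were called over all tumors. At the same adjusted p, the calls of Timp1 held under all alternatives in all 8 comparisons with the controls, those of Timp2 in 7 and those of Mmp14 in 6. Of the Mmp12 calls, those in MWCNT C and MWCNT D tumors also held under all of them.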
